A study of Mus musculus with 6 samples.

Results

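Muscle fibers turn an action potential into force through a calcium machinery that is assembled as myoblasts differentiate. The 10 genes described here encode core parts of it, and their RNA was measured in mouse muscle stem cells (MuSCs). They encode the calcium release channels Ryr1 and Ryr3, the voltage sensor subunits Cacna1s and Cacnb1, and the calcium pumps Atp2a1 and Atp2a2. The list also holds the luminal and junctional proteins Casq2 and Trdn and the junctophilins Jph1 and Jph2. The 10 genes were chosen by name for this role, and each name matched 1 of the 49671 genes in the files. All 10 were abundant enough to be among the 14494 genes tested.

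In excitation-contraction coupling, the voltage sensor in the T-tubule membrane opens ryanodine receptors in the facing membrane of the sarcoplasmic reticulum (SR). Calcium leaves the SR and activates the filaments, and SERCA pumps carry it back, while calsequestrin holds it inside the SR. Junctophilins tie the T-tubule to the SR, and triadin anchors calsequestrin to the release channel. Fast and slow fibers, and developing and adult muscle, use different paralogs of several of these proteins.

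RNA-Seq was performed on MuSCs collected by FACS from 6 female C57BL/6 mice aged 4 to 6 months, with 1 library per mouse. The tibialis anterior (TA) muscles of both legs had been injected with 50 μL of 1.2% BaCl2, a salt that kills myofibers, and were pooled within each mouse on day 3. A group of 3 mice received resolvin D1 (RvD1), a lipid mediator made from docosahexaenoic acid, at 100 ng per day by IP injection beginning before injury, and 3 control mice received vehicle with 0.1% ethanol. The sort kept cells that carried both β1-integrin and CXCR4 and excluded those with Sca-1, CD11b, Ter119, or CD45 on their surface. All mice were injured, and the values therefore compare MuSCs sorted from regenerating muscle of RvD1-treated and vehicle-treated mice.

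Libraries held between 17962025 and 28149176 expected counts in the RvD1 group and between 16148026 and 18755643 in the vehicle group. A count of 3 corresponded to between 0.107 and 0.186 CPM (counts scaled to a common library total), a limit that covers counting error only. RvD1 replicate 1 stood apart: 30.6% of the genes tested had their highest CPM of the 6 libraries there, and 29.5% their lowest. The myoblast markers Des, Itga7, and Cdh15 were present in each library at 517 to 643, 458 to 586, and 300.3 to 423 TPM (transcript abundance scaled for length and library). Pax7, the defining gene of quiescent MuSCs, was lower, at 4.03 to 8.5 TPM. Myog, which drives differentiation, lay between 818 and 1378 TPM, and the early sarcomeric genes Acta1 and Actc1 between 370 and 751 and between 190 and 466 TPM. Of the mature fiber list, Actn3 reached 269 to 358 TPM, Ckm 9.63 to 29.7 TPM, and Pygm 12.0 to 27.5 TPM. Of the myosins of adult fast fibers, Myh1 was at 6.5 to 10.4 TPM and Myh4 at 0.21 to 1.84 TPM, and Myh2 was listed at 0 in 3 of the 6 libraries. In such bulk samples, fewer cells of a type and less RNA per cell cannot be told apart.

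The levels of the 10 genes spanned 158-fold in mean TPM over the 6 libraries. Both SERCA genes led. Atp2a2, which encodes the pump of slow muscle, heart, and most other cells, had a mean of 188 TPM, and Atp2a1, the pump of fast fibers, 187 TPM. Each exceeded about 92.7% of the genes tested. Atp2a2 was above Atp2a1 in 3 of the 6 libraries, so their order was not resolved.

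Casq2, the calsequestrin of heart and slow muscle, followed at 25.1 TPM, and every library had more Atp2a1 than Casq2, with no overlap of their ranges. Jph2 had a mean of 19.3 TPM and was below Casq2 in 4 of 6 libraries, with overlapping ranges. Cacnb1 lay at 11.7 TPM and Jph1 at 8.18 TPM, and the ranges of Jph2, Cacnb1, and Jph1 did not overlap between neighbors. The skeletal release channel Ryr1 had a mean of 5.64 TPM, triadin 2.75 TPM, and Ryr3 1.41 TPM. In 6 of 6 libraries Jph1 was above Ryr1, Ryr1 above Trdn, and Trdn above Ryr3, although the ranges of these neighbors overlapped across libraries. Cacna1s, the pore of the voltage sensor, had the lowest mean, 1.19 TPM, and lay below Ryr3 in 3 of 6 libraries. The pumps that refill the SR were thus at levels above those of the release channel and of its voltage sensor in each library.

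**Figure D1:**
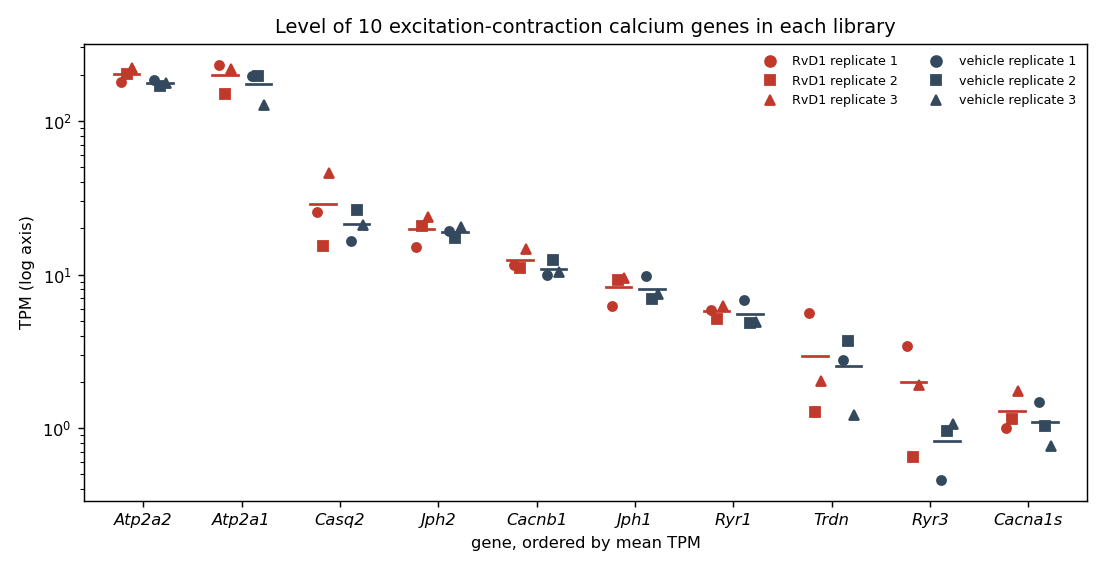
TPM (log axis) of the 10 genes in each library, ordered by mean, with RvD1 libraries in red, vehicle libraries in blue, symbols for the replicate numbers, and bars for the group means. The SERCA genes lie near 190 TPM and Cacna1s near 1 TPM, and the groups overlap for each gene.

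The DNA before the starts of these genes was examined because myogenic factors such as MyoD and myogenin, whose targets include muscle genes, bind E-boxes. RefSeq windows on GRCm38.p6 were at hand for 6 of the 10 genes, and the 250 bases before each start were searched for CAGCTG and for the general form CANNTG, both of which read the same on either strand. CAGCTG, which is also a CANNTG, occurred before Cacna1s, Atp2a1, and Jph2, 3 of the 6 genes, compared with 14.6% of the 10178 tested genes that have a window. CANNTG occurred before 5 of the 6, all but Ryr1, compared with 61.6% of those genes. A gene with several windows was counted if any of them held the motif. Cacnb1 and Jph2 have 2 windows each, and 1 window of Cacnb1 held no E-box. Stretches of 120 bases are shown, 5′ to 3′ on the strand of the gene, for the genes with CAGCTG and for Casq2, which has other E-boxes. They end before the first exon base annotated in GENCODE M21. Capitals mark E-boxes.
Atp2a1, chr7:126463109-126463228, minus strand: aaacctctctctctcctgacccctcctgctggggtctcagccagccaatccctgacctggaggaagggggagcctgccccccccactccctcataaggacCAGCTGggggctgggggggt
Cacna1s, chr1:136052630-136052749, plus strand: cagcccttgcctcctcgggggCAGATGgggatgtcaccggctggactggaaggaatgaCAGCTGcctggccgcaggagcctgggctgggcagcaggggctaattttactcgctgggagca
Jph2, chr2:163397994-163398113, minus strand: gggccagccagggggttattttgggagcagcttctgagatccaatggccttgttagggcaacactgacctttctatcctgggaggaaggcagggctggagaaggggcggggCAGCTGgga
Casq2, chr3:102086295-102086414, plus strand: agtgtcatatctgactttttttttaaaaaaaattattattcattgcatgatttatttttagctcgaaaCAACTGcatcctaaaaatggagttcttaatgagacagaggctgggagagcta
A match describes the letters of the window only, and binding was not measured. The 3 genes with CAGCTG ranged in level from the lowest of the 10, Cacna1s, to Atp2a1, near the top.

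The comparison of RvD1 with vehicle asked whether treatment altered the expression of the calcium machinery in MuSCs. No member of the set passed the test: 0 of 10 had an adjusted p below 0.05 in edgeR's quasi-likelihood test, against 0.0% of all 14494 genes tested. At an unadjusted p below 0.05 in edgeR there were 0 of 10, against 3.47% of the genes tested (503). DESeq2 and limma-voom also called 0 of the 10 at an adjusted p below 0.05. In 0 of 10 did the CPM of the 2 groups fail to overlap, against 9.62% of the genes tested, of which 4.77% were higher with RvD1 and 4.84% lower. The fitted log2 fold change of RvD1 over vehicle was above 0 in 9 of 10 genes, as in 53.5% of the genes tested, with a median of 0.12 against 0.01 for the genes tested. The values ran from -0.01 for Jph2 to 0.60 for Ryr3, and 3 of 10, those of Ryr3, Trdn, and Casq2, were beyond 0.3 in either direction, as were 19.5% of the genes tested. Without RvD1 replicate 3, the median was -0.01 and 5 of 10 were above 0, and without RvD1 replicate 1 the median was 0.17 and 7 of 10 were above 0.

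**Figure D2:**
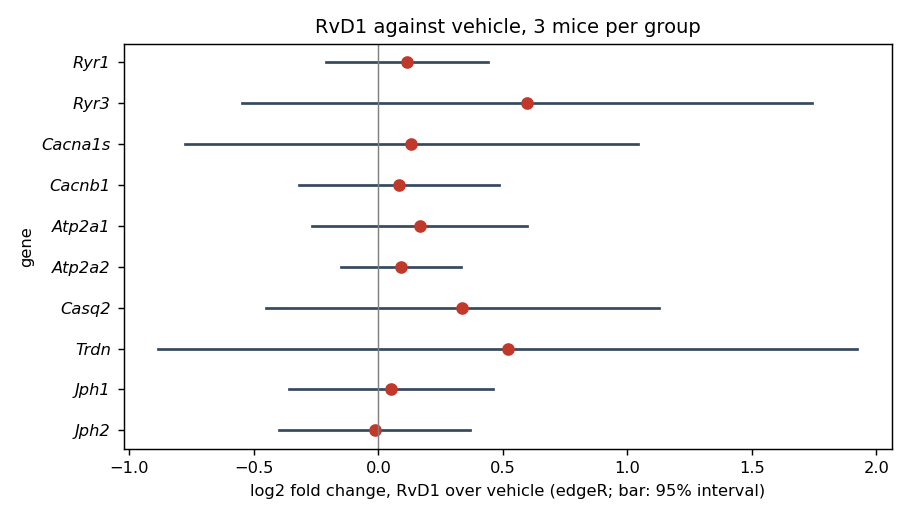
Log2 fold change of RvD1 over vehicle for the 10 genes from edgeR (points) with 95% intervals (bars), 3 mice per group. Each interval spans 0; it is narrowest for Atp2a2 and widest for Trdn.

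Ryr1 (ENSMUSG00000030592, chr7:29003344-29125179, minus strand, GRCm38) encodes the release channel of skeletal muscle, through which calcium leaves the SR. It was at 5.91, 5.17, and 6.26 TPM in RvD1 replicates 1 to 3 and at 6.83, 4.80, and 4.89 TPM in vehicle replicates 1 to 3. The highest value was thus in a vehicle library in TPM, whereas in CPM the highest was RvD1 replicate 1, at 47.4, and the lowest vehicle replicate 3, at 32.0. The log2 fold change was 0.11 (SE 0.14, 95% interval -0.21 to 0.44; edgeR adjusted p = 0.971), and it was -0.0012 without RvD1 replicate 1. The groups overlapped on both scales.

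Ryr3 (ENSMUSG00000057378, chr2:112631355-113217096, minus strand) encodes a release channel that is more prominent in developing than in adult limb muscle. Its TPM was 3.41, 0.65, and 1.91 with RvD1 and 0.46, 0.96, and 1.06 with vehicle. RvD1 replicate 1 was the highest library, and RvD1 replicate 2 lay below 2 of the 3 vehicle libraries. The fitted log2 fold change was 0.60 (SE 0.50, 95% interval -0.55 to 1.74; edgeR adjusted p = 0.971), the largest of the 10 genes, and without RvD1 replicate 1 it was -0.16.

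The TPM and counts of Ryr3 did not rank the libraries alike. Vehicle replicate 1 had 64.1 expected counts and 0.46 TPM, whereas RvD1 replicate 3 had 57.0 expected counts and 1.91 TPM. Counts per TPM varied 5.02-fold over the 6 libraries, and only 0.241% of the genes tested varied as much or more, with a median of 1.09-fold. Ryr3 has 12 annotated transcripts, and RSEM derives TPM from the transcript lengths to which it assigns the reads, so at a mean of 71.3 counts the TPM also moved with that assignment. The same measure was 2.35 for Trdn and 2.13 for Cacna1s, and at most 1.46 for the other 7 genes.

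Cacna1s (ENSMUSG00000026407, chr1:136052750-136119822, plus strand) encodes the pore-forming subunit of the skeletal L-type calcium channel, which senses voltage and couples directly to Ryr1. It was at 1.00, 1.14, and 1.74 TPM with RvD1 and 1.47, 1.04, and 0.77 TPM with vehicle. RvD1 replicate 3 was highest and vehicle replicate 3 lowest in TPM. In edgeR the log2 fold change was 0.13 (SE 0.40, 95% interval -0.78 to 1.04; edgeR adjusted p = 0.983). It was -0.39 without RvD1 replicate 3 and 0.44 without RvD1 replicate 2, and it was also below 0 in limma-voom (-0.05). With 43 to 84.6 counts per library, a change of less than about 2.06-fold upward lay within the interval.

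Cacnb1 (ENSMUSG00000020882, chr11:98001508-98023034, minus strand) encodes the cytoplasmic subunit that carries Cacna1s to the membrane. It was at 11.4, 11.1, and 14.6 TPM with RvD1 and 9.90, 12.5, and 10.4 TPM with vehicle, above its pore-forming partner in each library. RvD1 replicate 3 was the highest library, and RvD1 replicates 1 and 2 lay within the range of the vehicle libraries. Its log2 fold change was 0.08 (SE 0.18, 95% interval -0.32 to 0.48; edgeR adjusted p = 0.975), and -0.05 without RvD1 replicate 3.

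Atp2a1 (ENSMUSG00000030730, chr7:126445858-126463108, minus strand) was at 232, 150, and 217 TPM with RvD1 and 197, 196, and 127 TPM with vehicle. Its highest library was RvD1 replicate 1 and its lowest vehicle replicate 3, with RvD1 replicate 2 below the other vehicle libraries. RvD1 over vehicle gave a log2 fold change of 0.17 (SE 0.19, 95% interval -0.27 to 0.60; edgeR adjusted p = 0.971). Leaving out vehicle replicate 3 gave 5.7e-05, the lowest value over the libraries left out.

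Atp2a2 (ENSMUSG00000029467, chr5:122453513-122502225, minus strand) was at 179.9, 202, and 220 TPM with RvD1 and 184, 168, and 176 TPM with vehicle. It varied least of the 10 genes, 1.31-fold from the lowest to the highest library. In TPM, RvD1 replicates 2 and 3 were above all vehicle libraries, and RvD1 replicate 1 lay within the vehicle range. In CPM, RvD1 replicate 1 was the lowest of the 6 libraries, at 506 against 535 to 569 with vehicle. The log2 fold change was 0.09 (SE 0.11, 95% interval -0.15 to 0.33; edgeR adjusted p = 0.971), which places the fold between 0.902 and 1.26. Its unadjusted p in edgeR was 0.414. With limma-voom after removal of a surrogate variable, the procedure of the study's methods, the unadjusted p was 0.0235 and the adjusted p 0.383, in a fit where 2973 of 26518 genes had an unadjusted p below 0.05. Without RvD1 replicate 1 the edgeR p-values were 0.0224 unadjusted and 0.967 adjusted. In that run 637 of 14725 genes had an unadjusted p below 0.05. The log2 fold change of Atp2a2 was above 0 in each alternative run.

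Casq2 (ENSMUSG00000027861, chr3:102086415-102146514, plus strand) was at 25.6, 15.2, and 46.0 TPM with RvD1 and 16.5, 26.3, and 21 TPM with vehicle. RvD1 supplied both the highest library, replicate 3, and the lowest, replicate 2. For Casq2 the log2 fold change was 0.34 (SE 0.35, 95% interval -0.45 to 1.13; edgeR adjusted p = 0.971) and -0.17 without RvD1 replicate 3. Acta1, an early sarcomeric gene, also had its highest and lowest CPM in these libraries.

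Trdn (ENSMUSG00000019787, chr10:33080554-33476709, plus strand) encodes triadin, which links calsequestrin to the release channel. Its TPM was 5.58, 1.27, and 2.02 with RvD1 and 2.76, 3.68, and 1.21 with vehicle, from 79, 29, and 28 and from 29, 36, and 8 expected counts. RvD1 replicate 1 was high, vehicle replicate 3 was low, and RvD1 replicates 2 and 3 lay below the other vehicle libraries. A log2 fold change of 0.52 was fitted (SE 0.62, 95% interval -0.88 to 1.92; edgeR adjusted p = 0.971), the least precise of the 10 genes, and -0.15 without RvD1 replicate 1.

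The junctophilins were the closest to 0. Jph1 (ENSMUSG00000042686, chr1:16964560-17097889, minus strand) was at 6.23, 9.24, and 9.44 TPM with RvD1 and 9.74, 6.91, and 7.52 TPM with vehicle. Its lowest library was RvD1 replicate 1, and its highest in TPM was vehicle replicate 1. The log2 fold change was 0.05 (SE 0.18, 95% interval -0.36 to 0.46; edgeR adjusted p = 0.987).

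Jph2 (ENSMUSG00000017817, chr2:163336242-163397993, minus strand) was at 15.04, 20.6, and 23.7 TPM with RvD1 and 19.1, 17.3, and 20.3 TPM with vehicle. It was also lowest in RvD1 replicate 1, and RvD1 replicates 2 and 3 were above the vehicle libraries in TPM. Its log2 fold change was -0.01 (SE 0.17, 95% interval -0.40 to 0.37; edgeR adjusted p = 0.995), and 0.16 without RvD1 replicate 1. The sign of either junctophilin depended on the library left out.

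Exons of 7 of the 10 genes overlap an annotated gene on the opposite strand, Aven for Ryr3, Rabep2 for Atp2a1, and predicted genes for Ryr1, Cacna1s, Cacnb1, Atp2a2, and Jph1. The library kit does not mark strand, so reads from such bases cannot be told apart. Casq2, Trdn, and Jph2 share no exon bases with another gene.

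The libraries in which the 10 genes were high or low in CPM fell into 3 patterns, which were seen after the values were known and carry no test. The patterns did not all hold in TPM. On that scale Ryr1 was highest in vehicle replicate 1, and other libraries were lowest for Ryr1, Ryr3, Cacna1s, Cacnb1, and Atp2a2. Ryr1, Ryr3, Atp2a1, and Trdn had their highest CPM in RvD1 replicate 1 and their lowest in vehicle replicate 3. Of the genes tested, 30.6% were highest in RvD1 replicate 1, and 19.2% were lowest in vehicle replicate 3. For Ryr3 and Trdn, RvD1 replicate 1 lay 1.27 and 1.22 above the mean of the 6 libraries in log2 CPM. Ryr3 was nearly as low in RvD1 replicate 2 as in vehicle replicate 3, at 0.66 and 0.70 below the mean. Pygm, an enzyme of glycogen breakdown in fibers, was also highest and lowest in those libraries, at 0.91 above and 0.51 below the mean.

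Cacna1s and Casq2 had their highest CPM in RvD1 replicate 3, at 0.82 and 0.93 above the mean, and their lowest in RvD1 replicate 2, at 0.71 and 0.60 below it. Acta1 and Ckm showed the same extremes, and Myog was highest in RvD1 replicate 3 as well. Actn3 did so only by small margins, at 0.1564 in RvD1 replicate 3 and 0.1558 in vehicle replicate 2. Actc1, in contrast, was highest in RvD1 replicate 1, at 0.56 above the mean. The remaining 4 genes, Cacnb1, Atp2a2, Jph1, and Jph2, were lowest in RvD1 replicate 1, by 0.18, 0.17, 0.41, and 0.42. That library was also the lowest for 29.5% of the genes tested. Cacnb1 was nearly as low in vehicle replicates 1 and 3, by 0.15 and 0.13.

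All 10 genes had their highest CPM in an RvD1 library, 5 in replicate 3, 4 in replicate 1, and 1 in replicate 2. Of the genes tested, 61.7% had their highest CPM in an RvD1 library: 18.9% in replicate 3, 30.6% in replicate 1, and 12.2% in replicate 2. The lowest CPM was in RvD1 replicate 1 for 4 of the 10, in RvD1 replicate 2 for 2, and in vehicle replicate 3 for 4. An RvD1 library was also the lowest for 59.1% of the genes tested. In TPM, Ryr1 and Jph1 were highest in vehicle replicate 1, at 6.83 and 9.74. The mean log2 CPM of the 10 genes was 4.73, 4.31, and 4.84 in RvD1 replicates 1 to 3 and 4.56, 4.61, and 4.22 in vehicle replicates 1 to 3, so that the groups overlapped.

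Marker levels also moved between these libraries. The summed TPM of 6 fibro-adipogenic markers was 892 in RvD1 replicate 1 and 326 to 539 in the other libraries. Among these markers, Dcn and Col1a1 were at 450 and 347 TPM in RvD1 replicate 1. Ly6a, on the same list, was at 25.4 TPM there and at 26.3 to 39.7 TPM with vehicle. The sum of 4 Schwann cell markers was 36.8 TPM in RvD1 replicate 1 and 12.1 to 20.9 TPM in the other libraries. The sum of 10 early differentiation markers was 3710 in RvD1 replicate 3 and 2179 to 2856 elsewhere. By group, the 8 leukocyte markers summed to 29.0 to 53.6 TPM with RvD1 and 45.2 to 84.3 TPM with vehicle. The 11 mature fiber markers summed to 301 to 422 TPM with RvD1 and 323 to 381 TPM with vehicle. Most of the latter sums was Actn3 alone, at 269 to 358 TPM over the 6 libraries. The 7 myoblast markers summed to between 2121 and 2390 TPM with RvD1 and between 1945 and 2180 TPM with vehicle. Sums were 48.4 to 88.5 TPM and 54.0 to 63.9 TPM for smooth muscle and pericyte markers, 4.34 to 9.08 TPM and 3.26 to 10.7 TPM for endothelial markers, and 11.4 to 95.6 TPM and 32.0 to 79.3 TPM for erythroid markers. Notch3 was the largest part of the smooth muscle and pericyte sums, at 21.5 to 42.6 TPM. The log2 fold changes of these 6 markers were all above 0, from 0.02 for Notch3 to 0.99 for Abcc9 (edgeR adjusted p = 0.971 for Abcc9). That sign was shared by 53.5% of the genes tested. No marker was at 0 in all libraries. The part of these differences in the values of the 10 genes was not tested.

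**Figure D3:**
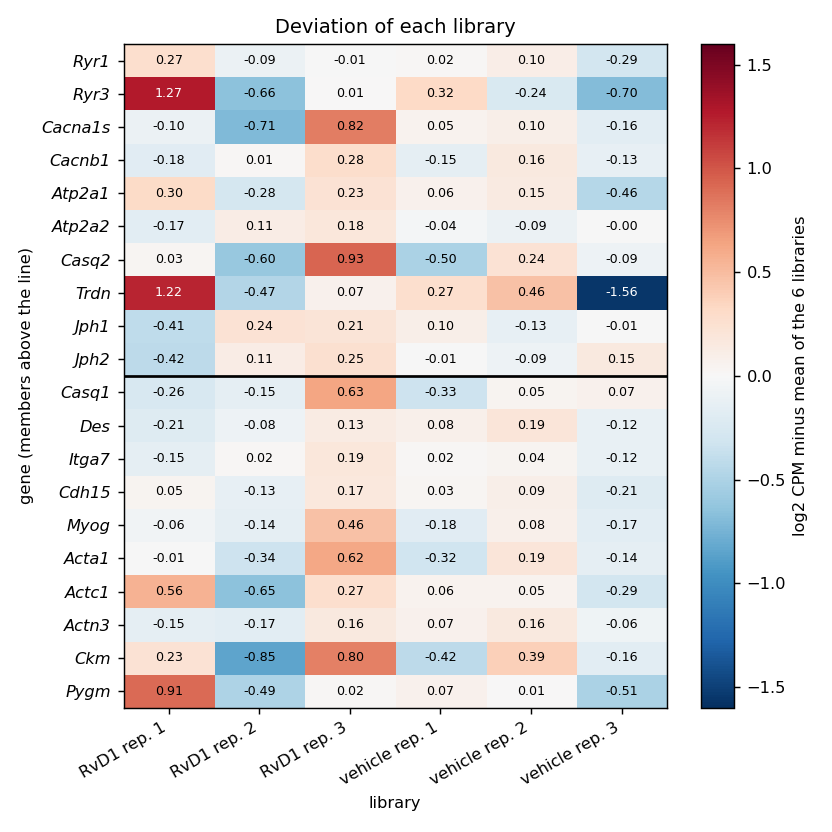
Log2 CPM of each gene in each library minus its mean over the 6 libraries (color and printed value), with the 10 calcium genes above the line and Casq1 and marker genes below it. RvD1 replicate 1 holds the highest values of Ryr3 (1.27) and Trdn (1.22), and RvD1 replicate 3 those of Casq2 (0.93) and Cacna1s (0.82).

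Paralogs of 1 machinery part were compared within each library as ratios of TPM. Jph2 exceeded Jph1 in 6 of 6 libraries, by 1.96- to 2.70-fold, and Casq2 exceeded its skeletal paralog Casq1 (mean 13.5 TPM) in 6 of 6 libraries, by 1.29- to 2.27-fold. Casq1 is the calsequestrin of fast fibers. Ryr3 was below Ryr1 in each library, at a ratio of 0.0673 to 0.577. The ratio of Atp2a2 to Atp2a1 lay between 0.777 and 1.38.

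None of these ratios differed between the groups beyond the spread of the libraries. The log2 ratio of Ryr3 to Ryr1 was -1.75 ± 1.02 (SD, n = 3) with RvD1 and -2.65 ± 0.85 (SD, n = 3) with vehicle. These means differed by 0.90 (p = 0.4 in a two-sided exact permutation test, 0.9 after Benjamini-Hochberg adjustment over the 4 pairs). From expected counts, which are not divided by transcript length, the difference was 0.30 (exact permutation p = 0.7), and with 1 added to each TPM it was 0.54. Since 3 mice against 3 cannot give p below 0.1, the test could not have passed the threshold. The difference was 0.03 for Casq2 over Casq1, -0.02 for Atp2a2 over Atp2a1, and 0.01 for Jph2 over Jph1, each with an exact permutation p of 0.9 before and after adjustment. In each pair the groups overlapped.

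**Figure D4:**
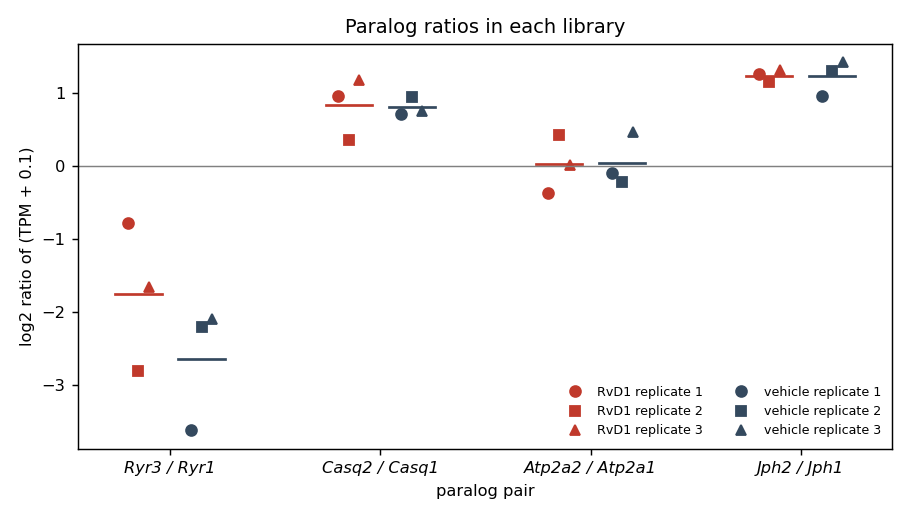
Log2 ratio of TPM, with 0.1 added to each value, for 4 paralog pairs in each library, with bars for group means. Casq2 and Jph2 lie above 0 in all libraries and Ryr3 below 0 in all, and the groups overlap for each pair.

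A further 68 genes of muscle calcium handling, listed by role, place the 10 genes in their pathway. Of these, 67 matched a gene in the files and 59 were tested. None passed the adjusted threshold (0 of 59, edgeR), and the fold change was above 0 in 34 and below 0 in 25, with a median of 0.04.

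Genes of this list whose CPM values did not overlap between the groups, as for 9.62% of the genes tested, included Ppp3cb, a calcineurin catalytic subunit (log2 fold change -0.13), and the calcium channel subunits Cacna2d1 (0.22) and Cacna1c (1.22), which were named after their values were seen. In TPM the groups overlapped for Ppp3cb, Cacna2d1, and Cacna1c. Cacna1c, the pore of the cardiac L-type channel, was at or below 0.42 TPM in each library. It had 35, 16, and 10 expected counts in RvD1 replicates 1 to 3 and 6, 7, and 7 in vehicle replicates 1 to 3.

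By role, the genes around the voltage sensor had 4 of 8 above 0. Cacng1, its gamma subunit, was at 74.2 to 88.0 TPM, and Stac3, which couples the sensor to Ryr1, at 18.1 to 25.8 TPM, with log2 fold changes of -0.04 and -0.22. Of the genes around the release channels, 3 of 5 tested were above 0. Fkbp1a, which binds and steadies ryanodine receptors, was at 597 to 678 TPM (log2 fold change -0.07), and the IP3 receptor Itpr2 at 2.97 to 10.99 TPM (0.27). Ryr2, the cardiac release channel, had at most 6 expected counts and was not tested.

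The other pump genes tested were above 0 in 4 of 4. Mrln, whose product myoregulin restrains the SERCA pump, was at 21.8 to 41.9 TPM, and the third SERCA gene Atp2a3 at 1.21 to 2.67 TPM, with log2 fold changes of 0.11 and 0.07. Atp2a3 was thus far below both of its paralogs. SR luminal genes were above 0 in 3 of 7, and the luminal chaperones Hspa5 and Calr had the highest levels of that group, at 1173 to 1385 TPM (log2 fold change -0.08) and 661 to 759 TPM (-0.06). Casq1 was at 13.1, 11.8, and 20.3 TPM with RvD1 and 10.01, 13.6, and 12.4 TPM with vehicle (log2 fold change 0.19, SE 0.25; edgeR adjusted p = 0.971).

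Triad and T-tubule genes were above 0 in 7 of 8, among them Tmem38a, a counter-ion channel of the SR (39.3 to 69.1 TPM, log2 fold change 0.07). Bin1, which shapes T-tubules, was the exception, at 244 to 330 TPM (-0.12). Genes of store-operated calcium entry were above 0 in 4 of 6, with Stim2 at 50.4 to 65.5 TPM (-0.04) and Orai1 at 12.97 to 19.3 TPM (-0.16). Surface extrusion genes were above 0 in 3 of 4, with the plasma membrane pumps Atp2b1 at 150.1 to 162 TPM (-0.05) and Atp2b4 at 4.99 to 6.50 TPM (0.02). Mitochondrial uptake genes were above 0 in 2 of 6, with Smdt1 at 157 to 184 TPM (-0.09) and Micu2 at 67.7 to 88.1 TPM (-0.01). Cytosolic buffers and sensors were above 0 in 4 of 11, with the calmodulin gene Calm2 at 939 to 1005 TPM (-0.08). The other 8 matched genes had too few counts to test, with maxima of 1 to 13 expected counts: Ryr2, Strit1, Jph3, Jph4, Atp2b2, Atp2b3, Slc8a2, and Pvalb, the buffer of fast fibers.

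**Figure D5:**
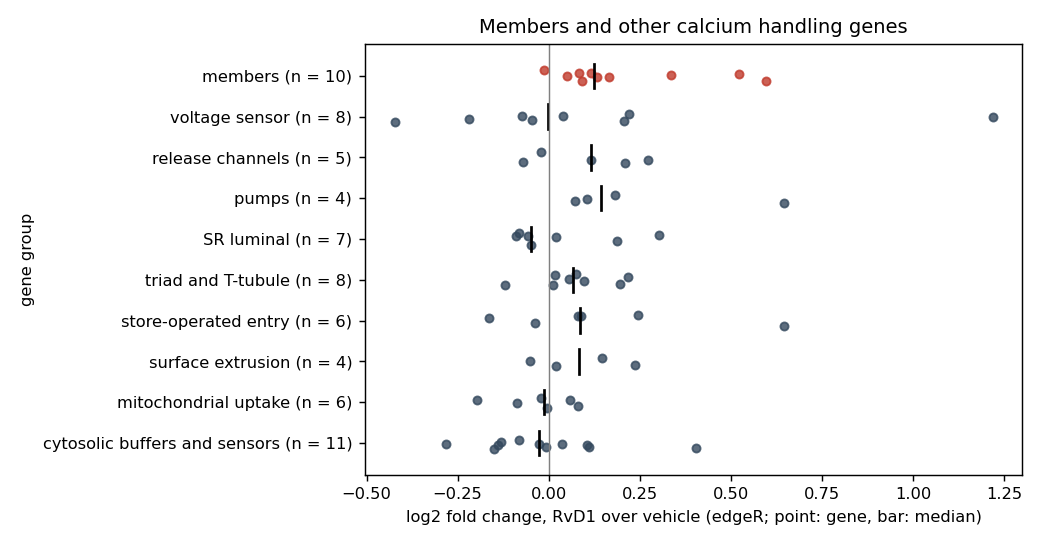
Log2 fold change of RvD1 over vehicle (edgeR) for the 10 genes (red, labeled members) and for the other calcium handling genes by role (blue), with a bar for each median. The red points lie between -0.01 and 0.60, and the medians of the other groups lie between -0.05 and 0.14.

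Outside these lists, the genes whose log2 CPM over the 6 libraries was most like the mean log2 CPM of the 10 genes were Klhl22 (Pearson r = 0.994), Sec31a (0.993), Snx2 (0.984), Vrk3 (0.981), and Pomt1 (0.981). They were taken from 8246 genes with a mean of at least 10 TPM, of which 76 reached an r of 0.9. The mean joins genes of the differing patterns described above. It was higher in RvD1 replicate 1 (4.73) than in each vehicle library, whereas Cacnb1, Atp2a2, Jph1, and Jph2 were lowest there. Likeness to the mean is therefore not likeness to each of the 10 genes. With 6 libraries that share their scaling and only 6 points for each gene, these values are a description.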

How the data were processed

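Expected counts and TPM were read for 3 RvD1 and 3 vehicle libraries. The authors aligned 76-bp reads to mm10 with STAR 2.5.0a and quantified genes with RSEM, giving the expected counts they deposited, which are estimates that keep each library's depth. TPM, also deposited, is relative to transcript length and to each library's total. FPKM values were not used. RSEM divides reads among paralogs that they match.

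Counts were rounded and tested across all genes with edgeR 4.0.16 (R 4.3.3; TMM, filterByExpr, quasi-likelihood test, Benjamini-Hochberg threshold 0.05). CPM were TMM scaled, with a prior count of 2 on the log2 scale. Paralog ratios used TPM with a pseudocount of 0.1. Scripts were tested on simulated counts with planted 4-fold changes. That simulation held 0 surrogate variables, so their removal was not exercised. Alternatives were DESeq2 1.42.0, limma-voom (limma 3.58.1) without and with the surrogate variable of sva 3.50.0 removed as in the study's methods, RLE scaling, no count filter, a replicate block, log2 TPM, and each library left out. The genes and lists were chosen with earlier results of these data known. Named besides the 10 genes were, by rule, the 2 highest genes of each role, those with an unadjusted p below 0.05, Casq1, 3 markers for each of 3 myogenic lists, and the 5 closest profiles. Pax7, Myh1, Myh2, Myh4, Ppp3cb, Cacna2d1, Cacna1c, and genes too low to test were named after values were seen. A result of the calcium list is not reported here. Positions are from GENCODE M21. Methods and labels differ on RNA input (10 and 1 ng), and the labels add CD31 to the markers sorted against.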

Additional observations from a re-analysis of the deposited data

How the results depend on the processing

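None of the 10 genes passed an adjusted p of 0.05 under any setting run. At an unadjusted p below 0.05, Atp2a2 alone of the 10 passed, with the surrogate variable removed and without RvD1 replicate 1. In those runs 2973 of 26518 and 637 of 14725 genes passed that threshold. Over all genes, 12 were called without the count filter and 1, Pagr1a, without RvD1 replicate 3 (range over libraries left out, 0 to 1), against 0 otherwise. Cacna1s was -0.048 in limma-voom and -0.078 with the surrogate variable removed. Jph2 was 0.062 with that variable removed and 0.043 and 0.044 on log2 TPM with pseudocounts of 1 and 0.1. The ratio of Jph2 to Jph1 was -0.061 and that of Ryr3 to Ryr1 0.30 from counts. The median of the other calcium genes was 0.11 on log2(TPM + 0.1). On log2 TPM with a pseudocount of 1, 67.9% of the genes tested and 10 of the 10 calcium genes were above 0, compared with 53.5% and 9 on counts; the median of the genes tested was then 0.08.

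With 1 library left out, log2 fold changes ranged from -0.0012 to 0.19 for Ryr1, -0.16 to 0.95 for Ryr3, -0.39 to 0.44 for Cacna1s, -0.048 to 0.19 for Cacnb1, 5.7e-05 to 0.32 for Atp2a1, 0.019 to 0.19 for Atp2a2, -0.17 to 0.63 for Casq2, -0.15 to 0.89 for Trdn, -0.063 to 0.23 for Jph1, and -0.15 to 0.16 for Jph2. Their median ranged from -0.010 to 0.26, that of the other calcium genes from -0.020 to 0.068, and the ratios from 0.41 to 1.43 for Ryr3 over Ryr1, -0.14 to 0.27 for Casq2 over Casq1, -0.22 to 0.19 for Atp2a2 over Atp2a1, and -0.12 to 0.11 for Jph2 over Jph1. The cause of these shifts was not tested.

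Both groups number their mice 1 to 3, although no source pairs them. Deviations of same-numbered libraries from their group means had correlations of 0.31, -0.00071, and 0.13. Libraries with different numbers were not compared in this way, so these values cannot decide whether the numbers pair the mice. With the replicate block, 0 genes were called, 896 had an unadjusted p below 0.05 against 503 without it, and the median of the 10 genes was 0.10. Depth limits Trdn, Ryr3, and Cacna1s most, with means of 34.8, 71.3, and 53.1 counts.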
